A study of Mus musculus with 6 samples.

Results

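Glucocorticoid-induced target genes are genes whose transcription rises when the glucocorticoid receptor is active. The receptor rests in the cytoplasm with Hsp90 and its co-chaperones. After binding corticosterone, the main glucocorticoid of mice, it moves to the nucleus, binds palindromic DNA sites called glucocorticoid response elements and changes the transcription of nearby genes. In the brain this program runs in neurons, glia and blood vessel cells and is commonly read as a trace of stress hormone exposure. The 9 genes described were Fkbp5, Sgk1, Tsc22d3, Zbtb16, Cdkn1a, Ddit4, Plin4, Sult1a1 and Ctla2a. They were found by matching gene symbols to the Ensembl identifiers of the deposited values, and all 9 were present among 21006 genes. The list was chosen by the measured PND against CON values of these same samples, so the differences of the 9 genes between the groups are given as a description, without a test.

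mRNA was measured in the prefrontal cortex of male C57BL/6 wild type mice, 18 months old by the age label although the 6 sample titles carry 17 as the number of months, with 3 mice in the PND group and 3 in the CON group. PND stands for postoperative neurocognitive disorder. The PND mice had isoflurane anesthesia and exploratory laparotomy, in which the abdomen is opened and inspected, with lidocaine cream and povidone iodine on the wound afterwards. The CON mice had neither anesthesia nor operation, so the effects of isoflurane, incision and wound care cannot be told apart. All animals of the study had a foot shock in fear conditioning before the operation day and went through open field, fear and Barnes maze tests in the days after it. The tissue of both groups was taken under deep isoflurane soon after the Barnes maze test that ended these days of testing. Handling and a final anesthesia were thus common to all 6 mice. In the study, operated mice took longer than control mice to find the target hole in that test, so exposure to it was not equal. The samples came from separate animals, and the levels are FPKM (fragments per kilobase of exon, corrected for sequencing depth), which can be compared between genes.

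The depth was estimated from the steps between low values and lay between 7191000 and 9386000 fragments per sample. Markers of cortical neurons were found in all 6 samples, and the least abundant excitatory layer marker among them, Cux2, was never below 4.04 FPKM. Libraries differed in their GC-rich genes. The median log2 deviation of the 1233 genes of highest GC content from their mean over the 6 samples reached 0.49 in CON replicate 2 and 0.37 in PND replicate 3. It was lowest in CON replicate 1, at -0.56, and in PND replicate 2, at -0.30. A version of the values with the GC trend removed from each library is therefore given beside the members of high GC content.

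The palindromic receptor site was found before the start of 1 of these genes, Sgk1. Promoter windows of 250 bases before to 50 bases after the transcription start were taken from RefSeq (GRCm38.p6), and 8 of the 9 genes had at least 1. Zbtb16 had none. The perfect palindromic receptor site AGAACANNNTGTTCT reads the same on both strands and was present in 3 of 32851 mouse windows (0.00913%). One of these 3 belonged to Sgk1. It spanned positions -189 to -175 from the start of 1 of the 6 Sgk1 windows, and it is shown in capitals in the stretch chr10:21993661-21993755, plus strand.

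Sgk1: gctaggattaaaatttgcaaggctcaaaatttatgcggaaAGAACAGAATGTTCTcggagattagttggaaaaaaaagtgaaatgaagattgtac

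The looser core GNACANNNTGTNC, which the perfect site contains, was in 0.475% of all windows and in no other member. The hexamer AGAACA, a single arm of the palindrome, was searched on both strands. It was in 19.0% of all windows and is thus common by itself. By gene it was in 4 of the 8 members with a window (Sgk1, Tsc22d3, Sult1a1 and Ctla2a), beside 21.3% of all genes. It was in 2 of the 24 other glucocorticoid-induced genes with a window (8.33%), a list described below. Sgk1 had 6 windows in which it could occur. In Sult1a1 it was present on each strand (chr7:126676419-126676668, minus strand), and in Ctla2a once, in the window of its upstream start site (chr13:60936626-60936875, minus strand). The same letters stood in the promoter of Ctla2b (chr13:60897448-60897697, minus strand), the neighbouring copy of Ctla2a. These 3 are shown because Sult1a1 and Ctla2a had wide gaps between the groups and Ctla2b did not, with the hexamer in capitals.

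Sult1a1: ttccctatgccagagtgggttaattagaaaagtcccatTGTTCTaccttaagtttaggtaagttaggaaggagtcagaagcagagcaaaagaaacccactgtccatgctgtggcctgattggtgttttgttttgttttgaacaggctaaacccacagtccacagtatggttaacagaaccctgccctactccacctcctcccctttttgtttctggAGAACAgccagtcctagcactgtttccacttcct

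Ctla2a: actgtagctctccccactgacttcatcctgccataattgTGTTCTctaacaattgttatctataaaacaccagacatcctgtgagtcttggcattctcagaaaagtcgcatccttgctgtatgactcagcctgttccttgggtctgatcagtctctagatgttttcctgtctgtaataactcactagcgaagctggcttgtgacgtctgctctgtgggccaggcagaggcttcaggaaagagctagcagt

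Ctla2b: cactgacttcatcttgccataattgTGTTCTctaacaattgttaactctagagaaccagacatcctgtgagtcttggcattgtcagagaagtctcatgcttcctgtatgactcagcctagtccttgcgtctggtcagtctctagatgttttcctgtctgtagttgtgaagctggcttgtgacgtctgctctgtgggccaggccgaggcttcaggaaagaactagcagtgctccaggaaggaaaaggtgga

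Ctla2a and Ctla2b had the same base at 209 of 228 aligned positions (91.7%) of these stretches. Cdkn1a had no receptor palindrome in its 2 windows. It is also a target of p53, the DNA damage transcription factor, and a p53 element stood in the window of its upstream start (chr17:29090866-29090977, plus strand), shown in capitals. Such an element was in 0.0731% of all windows. These matches describe letters in short windows and do not show that a factor was bound.

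Cdkn1a: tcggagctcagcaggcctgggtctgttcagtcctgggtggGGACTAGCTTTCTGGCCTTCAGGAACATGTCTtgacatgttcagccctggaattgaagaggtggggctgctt

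Of the 9 genes, 6 were higher in every PND mouse than in every CON mouse: Fkbp5, Sgk1, Cdkn1a, Plin4, Sult1a1 and Ctla2a. Among all 18185 genes tested, 3.78% had every PND sample above every CON sample. This order and the sizes below belong to the values from which the list was chosen. The widest gaps belonged to the 3 genes with metabolic or protease-related products, and the remaining 3 of the 6 were shifted less. Tsc22d3, Zbtb16 and Ddit4 overlapped between the groups. The log2 ratio of PND to CON is the difference of the group means on the log2(FPKM + 0.1) scale. It shrinks the differences of genes with low values, and it is followed by its standard error (SE).

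**Figure D1:**
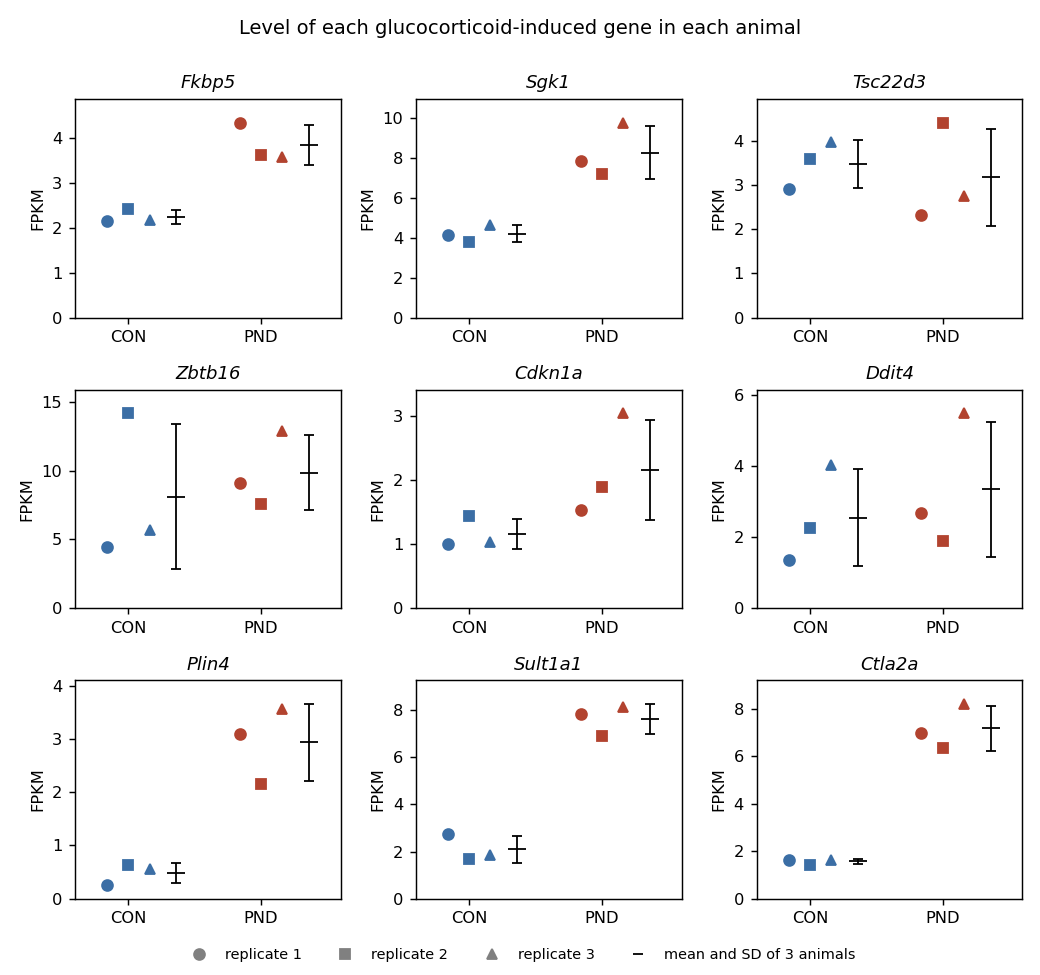
FPKM of each of the 9 genes (vertical axes, each from 0) in the 3 CON mice (blue) and the 3 PND mice (red). Marker shapes give the replicate number, and the black bars give the mean and SD of each group. In 6 panels all red points lie above all blue points, while Tsc22d3, Zbtb16 and Ddit4 overlap.

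Fkbp5 encodes a co-chaperone of Hsp90 that lowers the hormone binding of the glucocorticoid receptor, so that its induction closes a short feedback loop. Its level was 4.35, 3.62 and 3.58 FPKM in PND replicates 1 to 3 and 2.16, 2.43 and 2.17 FPKM in CON replicates 1 to 3. The lowest PND value was 1.47 times the highest CON value. The means were 3.85 ± 0.436 and 2.25 ± 0.157 (SD, n = 3 each), a log2 ratio of 0.74 (SE 0.17). Leaving out each animal in turn moved this between 0.65 and 0.80. Fkbp5 lies on chromosome 17 (28399094 to 28517527, minus strand, GRCm38).

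Sgk1 encodes a serine/threonine kinase that regulates ion channels and transporters and is the member with the perfect receptor palindrome printed above. PND replicates 1 to 3 had 7.85, 7.16 and 9.75 FPKM. CON replicates 1 to 3 had 4.13, 3.80 and 4.63 FPKM. All 3 PND mice thus lay above the CON mice, the lowest by 1.54 times the highest CON value. The means were 8.25 ± 1.34 and 4.19 ± 0.418 (SD, n = 3 each), a log2 ratio of 0.95 (SE 0.17), just under the 2-fold size that the study used as a cut-off. Without PND replicate 2 it was 1.05 and without CON replicate 3 it was 1.03, both above that size. The gene lies on chromosome 10 (21882184 to 21999903, plus strand) and has several start sites, which FPKM per gene do not separate.

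Tsc22d3 encodes GILZ, a leucine zipper protein that binds transcription factors of inflammation and is among the most widely used reporters of glucocorticoid action. Its level did not separate the groups. It was 2.33, 4.41 and 2.75 FPKM in the PND replicates and 2.90, 3.58 and 3.97 FPKM in the CON replicates. PND replicate 2 was the highest of all 6 and PND replicate 1 the lowest. The means were 3.17 ± 1.1 and 3.48 ± 0.542 (SD, n = 3 each), and the log2 ratio was -0.17 (SE 0.26), the lowest of the 9 genes. Tsc22d3 lies on the X chromosome, and all animals were male.

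Zbtb16 encodes PLZF, a zinc finger transcription factor. It had the highest mean level of the 9 genes in both groups. PND replicates 1 to 3 had 9.11, 7.56 and 12.9 FPKM, and CON replicates 1 to 3 had 4.47, 14.2 and 5.72 FPKM. CON replicate 2 was the highest of the 6 samples and the other CON mice were the lowest. The means were 9.85 ± 2.73 and 8.13 ± 5.29 (SD, n = 3 each), with a log2 ratio of 0.42 (SE 0.42). It became 0.91 without CON replicate 2 and 0.09 without CON replicate 1. These are also the libraries with the highest and the lowest levels of GC-rich genes, and 53.6% of the bases of Zbtb16 were G or C. With the GC trend removed, CON replicate 2 was at 11.9 FPKM and the other CON replicates at 5.41 and 5.82 FPKM, against 8.60, 8.49 and 11.2 FPKM in PND, and the groups still overlapped.

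Cdkn1a encodes p21, an inhibitor of cyclin-dependent kinases that is induced by glucocorticoids and by p53. It was 1.54, 1.89 and 3.05 FPKM in the PND replicates and 0.998, 1.44 and 1.04 FPKM in the CON replicates. The groups were separated by a narrow margin, with the lowest PND value 1.07 times the highest CON value. The means were 2.16 ± 0.788 and 1.16 ± 0.242 (SD, n = 3 each), a log2 ratio of 0.81 (SE 0.30). PND replicate 3 carried much of this, and the log2 ratio was 0.54 without it and 1.01 without PND replicate 1. After the GC correction the PND values were 1.45, 2.16 and 2.60 FPKM and the CON values 1.26, 1.16 and 1.06 FPKM, so the order held.

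Ddit4 encodes REDD1, an inhibitor of the growth kinase complex mTORC1 that responds to glucocorticoids, hypoxia and energy stress. PND replicates 1 to 3 had 2.68, 1.88 and 5.50 FPKM and CON replicates 1 to 3 had 1.35, 2.26 and 4.04 FPKM. Both groups spread widely, with a coefficient of variation of 56.7% in PND and 53.8% in CON. The means of 3.35 ± 1.9 and 2.55 ± 1.37 (SD, n = 3 each) differed by a log2 ratio of 0.37 (SE 0.48). This was 0.00 without CON replicate 1, -0.04 without PND replicate 3 and 0.76 without CON replicate 3, so single animals set its size and its sign. Of its bases 57.9% were G or C, the highest share among the 9 genes. After the GC correction the PND values were 2.48, 2.29 and 4.34 FPKM and the CON values 1.95, 1.63 and 4.13 FPKM, with a log2 ratio of 0.29 (SE 0.38).

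Plin4 encodes a perilipin, a protein that coats lipid droplets. It was 3.10, 2.15 and 3.57 FPKM in the PND replicates and 0.260, 0.625 and 0.557 FPKM in the CON replicates. No other gene of the 9 was as low in CON, where its mean stood above 19.9% of the genes tested, against 54.2% in PND. The means were 2.94 ± 0.721 and 0.481 ± 0.194 (SD, n = 3 each), a ratio of 6.11 and a log2 ratio of 2.42 (SE 0.34). The CON values rested on an estimated 11.3 to 29.4 fragments per library and the PND values on 98.4 to 193.4. CON replicate 1, the library lowest in GC-rich genes, gave the lowest value, and 55.9% of the bases of Plin4 were G or C. After the GC correction the CON values drew together at 0.373, 0.466 and 0.571 FPKM and the PND values at 2.89, 2.53 and 2.94 FPKM, with a log2 ratio of 2.35 (SE 0.21). Exons of Plin4 share 17 bases with Hdgfl2 on the other strand.

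Sult1a1 encodes a sulfotransferase that conjugates phenols, among them drugs and monoamine metabolites. It was 7.84, 6.91 and 8.15 FPKM in the PND replicates and 2.75, 1.69 and 1.86 FPKM in the CON replicates. The PND mice were close together, with a coefficient of variation of 8.48%, and the lowest of them was 2.51 times the highest CON mouse. The means were 7.63 ± 0.647 and 2.10 ± 0.57 (SD, n = 3 each), a ratio of 3.64 and a log2 ratio of 1.84 (SE 0.21). The GC correction left this at 1.84. Sult1a1 lies on chromosome 7 (126672865 to 126676432, minus strand), and 61 of the 1507 exon bases are shared with Sgf29 on the other strand. The use of strand in counting was not given in the sources used here.

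Ctla2a encodes an inhibitor of cysteine proteases that resembles the propeptide of cathepsins. PND replicates 1 to 3 had 7.00, 6.36 and 8.22 FPKM and CON replicates 1 to 3 had 1.65, 1.43 and 1.62 FPKM. The lowest PND mouse was 3.85 times the highest CON mouse, the widest separation among the 9 genes. The means were 7.19 ± 0.949 and 1.57 ± 0.12 (SD, n = 3 each), a ratio of 4.59 and a log2 ratio of 2.12 (SE 0.17), which stayed between 2.02 and 2.21 when each animal was left out. Ctla2a and Ctla2b transcripts share runs of up to 127 identical bases, and 343 exon bases of Ctla2a are shared with Gm49391 on the same strand, a gene without a row in the values. Of the 1723 exon bases of Ctla2b, 1035 are shared with Gm49391 and 390 with Gm49392, which also has no row in the values. How such reads were divided is not known here. Ctla2b itself was low, at 0.207, 0.0772 and 0.325 FPKM in the PND replicates and 0.163, 0.374 and 0 FPKM in the CON replicates, and did not separate the groups.

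By size alone, Plin4, Sult1a1 and Ctla2a had log2 ratios above 1. The log2 ratio was positive for 8 of the 9 members. Their median was 0.81, and that of all genes tested was 0.01.

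**Figure D2:**
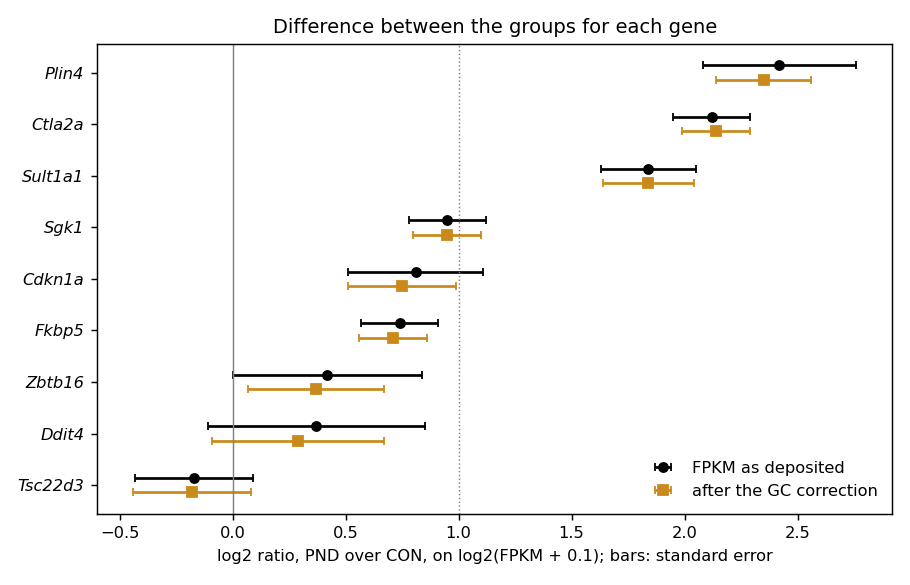
Log2 ratio of PND over CON for the 9 genes (horizontal axis, on the log2(FPKM + 0.1) scale), with standard errors as bars. Black circles use the FPKM as deposited and ochre squares the values after the GC correction. The dotted line marks a log2 ratio of 1, passed by Sult1a1 (1.84), Ctla2a (2.12) and Plin4 (2.42) in both versions.

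The order of levels among the members differed between the groups. In CON it ran from Zbtb16 over Sgk1, Tsc22d3, Ddit4, Fkbp5, Sult1a1, Ctla2a and Cdkn1a down to Plin4. Neighbours in this order lay within 1 SD (the larger of the pair) of each other from Tsc22d3 through Ctla2a, and the mean of Zbtb16 lay within 1 SD of that of Sgk1 because its CON values spread so widely. In PND, Sult1a1 and Ctla2a stood next to Sgk1 at 7.63, 7.19 and 8.25 FPKM, and these 3 could not be separated beyond their spread, nor from Zbtb16. Below them Fkbp5, Ddit4, Tsc22d3, Plin4 and Cdkn1a followed, each within 1 SD of its neighbour. Among all genes tested, Sult1a1 stood above 46.7% of the genes in CON and above 75.6% in PND, and Ctla2a above 40.7% and 74.4%. Fkbp5 moved from 48.3% to 60.3%.

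The members also varied between animals of the same group. PND replicate 3 was the highest PND mouse for 7 of the 9 genes, and PND replicate 2 was the lowest for 6. In CON, replicate 1 was the lowest for 6 of the 9. The same libraries were high or low in GC-rich genes, as the grid of deviations shows, and the part of this in the order of the animals was not tested. Sult1a1 and Ctla2a did not follow that order in CON, where replicate 1 was the highest for both.

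**Figure D3:**
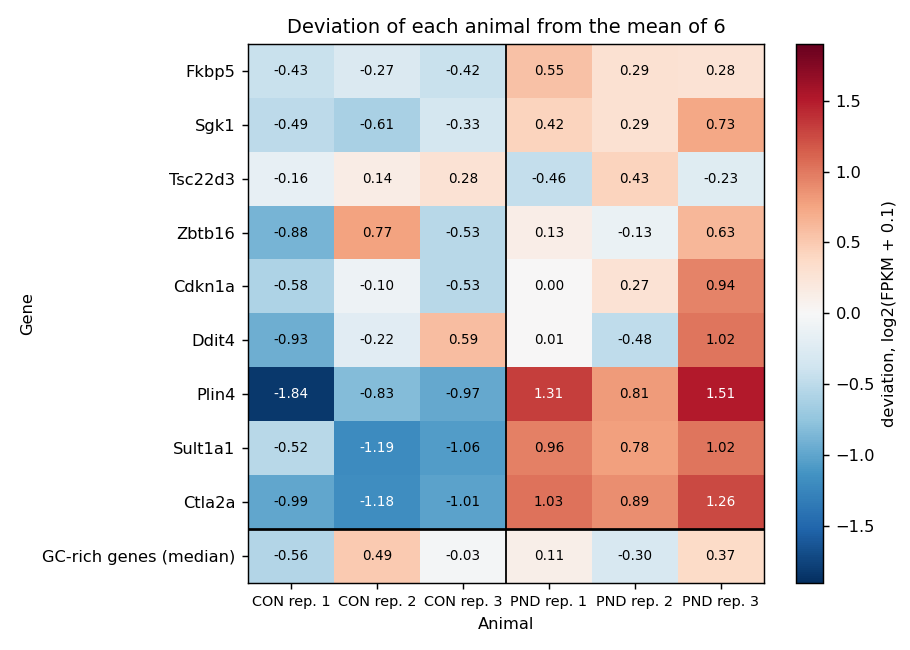
Deviation of each mouse (columns) from the mean of all 6 mice for each of the 9 genes (rows), in log2(FPKM + 0.1), with the value printed in each cell. Red is above and blue below the mean. The bottom row gives the median deviation of the 1233 genes of highest GC content, from -0.56 in CON replicate 1 to 0.49 in CON replicate 2.

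Other genes that glucocorticoids induce were examined to see how far the pattern of the members reached. The list held 30 genes that are not members, and 29 passed the filter on low values (Cebpd did not). Of these, 9 of 29 were higher in PND at an unadjusted p below 0.05 in limma and 0 were lower, where 1.73% of all genes tested were higher and 1.40% were lower at that threshold. In the list 0 of 29 reached an adjusted p below 0.05, and the lowest adjusted p in limma was 0.787, for Fam107a. Every PND sample lay above every CON sample for 11 of the 29, or 10 of 28 without Lcn2, which was listed at 0 in CON, beside 3.78% of all genes. The reverse order held for 2 of the 29 (Klf15 and Dio2), beside 3.88% of all genes. The median log2 ratio of the list was 0.40. The list was made with earlier results of these samples known, and this count is a description of it.

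Lcn2, which encodes lipocalin 2, a secreted iron-carrier binding protein, was listed at 0 in all 3 CON mice and at 0.163, 0.286 and 0.285 FPKM in PND, an estimated 3.8 to 7.0 fragments, so no fold is given. Without it the list held 8 of 28 genes at that threshold, with the same median of 0.40. Hif3a, a hypoxia-inducible factor subunit, was 1.84, 1.89 and 2.74 FPKM in PND and 0.922, 1.03 and 0.584 FPKM in CON. Its log2 ratio was 1.26 (SE 0.29, unadjusted p = 0.00274 in limma). Rasd1, a small GTPase first described as dexamethasone-induced, was 1.19, 0.707 and 1.52 FPKM in PND and 0.0828, 0.381 and 0.604 FPKM in CON. Its log2 ratio of 1.59 (SE 0.54, unadjusted p = 0.0207 in limma) rested on an estimated 1.0 to 7.0 fragments per CON library. The log2 ratio was 1.03 without CON replicate 1 and 2.01 without CON replicate 3. The p of Rasd1 was 0.0604 without PND replicate 1 and 0.0765 without PND replicate 3. Without Lcn2, which passed the filter on low values only through its PND samples, 2 of 28 genes of the list (Hif3a and Rasd1) were past the cut-off of the study, an absolute log2 ratio above 1 with an unadjusted p below 0.05 (here in limma). Of all 18185 genes tested, 1.33% passed it in either direction and 0.841% passed it as higher in PND.

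Fam107a, an actin-associated protein that is raised in the brain by stress, was the most abundant of the 9 genes. It was 61.2, 54.8 and 74.5 FPKM in PND and 39.0, 43.1 and 37.0 FPKM in CON, a log2 ratio of 0.67 (SE 0.14, unadjusted p = 0.00152 in limma). Its promoter held the looser receptor core, as did those of Mt1 and Map3k6, which did not pass the test. These were 3 of the 24 genes of the list with a window (12.5%), beside 1 of 8 members (12.5%) and 0.537% of all genes. Xdh, the xanthine dehydrogenase of purine breakdown, was 2.27, 2.56 and 2.69 FPKM in PND and 1.45, 1.55 and 1.42 FPKM in CON, a log2 ratio of 0.72 (SE 0.18, unadjusted p = 0.00474 in limma). Arrdc2, an arrestin-domain protein, had a log2 ratio of 0.81 (SE 0.23, unadjusted p = 0.00899 in limma). Mertk, a phagocytic receptor kinase of astrocytes and microglia, had a log2 ratio of 0.40 (SE 0.12, unadjusted p = 0.0135 in limma). Hif3a, Fam107a, Arrdc2, Mertk and Xdh kept an unadjusted p below 0.05 in limma whichever 1 of the 6 animals was left out, 5 of the 8 genes.

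Rhob, a small GTPase of endosomes, and Gjb6, the astrocyte gap junction protein connexin 30, did not. Rhob had a log2 ratio of 0.44 (SE 0.18, unadjusted p = 0.0416 in limma), with groups that overlapped. Its p was 0.137 without PND replicate 1, 0.117 without PND replicate 3, 0.0837 without CON replicate 2 and 0.145 without CON replicate 3, and 0.201 after the GC correction. Gjb6 had a log2 ratio of 0.43 (SE 0.17, unadjusted p = 0.0373 in limma). Its p was 0.12 without PND replicate 1, 0.0864 without PND replicate 2, 0.101 without CON replicate 1 and 0.0879 without CON replicate 3.

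**Figure D4:**
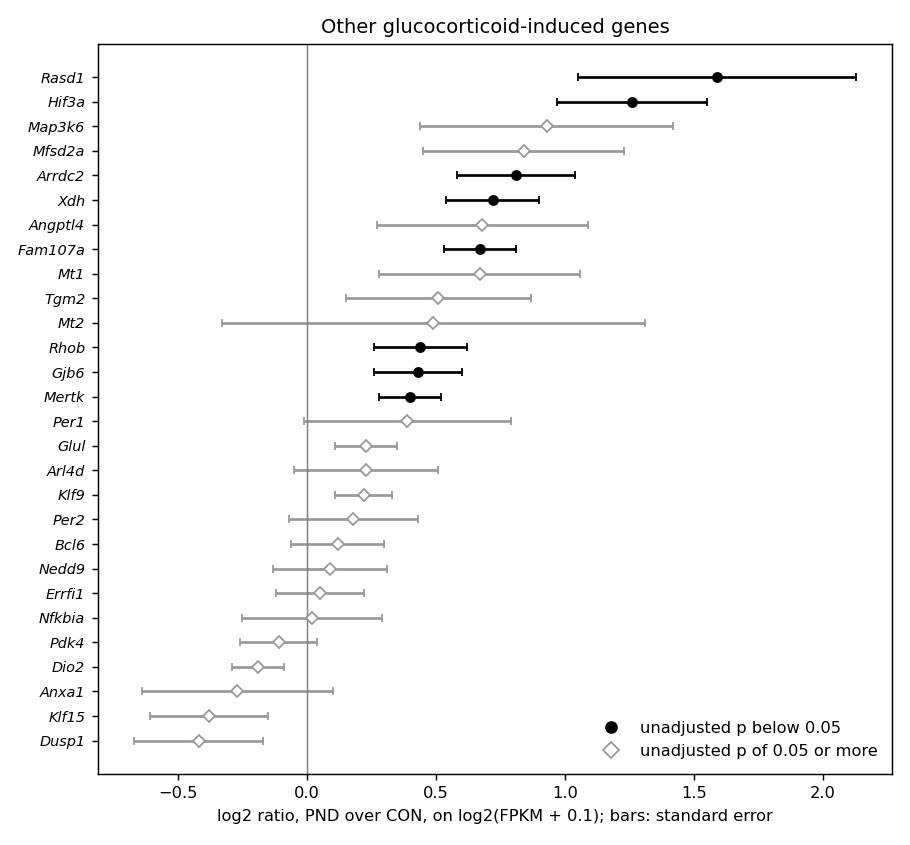
Log2 ratio of PND over CON (horizontal axis, on the log2(FPKM + 0.1) scale) for 28 other glucocorticoid-induced genes, with standard errors as bars. Filled black circles had an unadjusted p below 0.05 in limma, and open grey diamonds did not. Lcn2 is left out because it was listed at 0 in CON. All 8 filled circles lie to the right of 0, between 0.40 and 1.59.

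Several textbook targets did not pass the test. Per1, a clock gene, was 4.47, 2.63 and 3.70 FPKM in PND and 1.50, 4.62 and 2.69 FPKM in CON. Its log2 ratio was 0.39 (SE 0.40, unadjusted p = 0.357 in limma). Klf9, a transcription factor of the Krüppel family, had a log2 ratio of 0.22 (SE 0.11), with every PND sample above CON. Nfkbia, the inhibitor of NF-kappaB, had one of 0.02 (SE 0.27) and Dusp1, a MAP kinase phosphatase, one of -0.42 (SE 0.25). The metallothioneins Mt1 and Mt2 spread widely, Mt2 from 4.80 to 39.3 FPKM within CON alone. Glul, the glutamine synthetase of astrocytes, was the most abundant gene of the list, with a mean of 420.0 ± 24.8 FPKM for PND and one of 361.0 ± 44.0 FPKM for CON (SD, n = 3 each), and a log2 ratio of 0.23 (SE 0.12).

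The receptors, their chaperones and coactivators, Hsd11b1 and an efflux pump were given by 9 genes. Hsd11b2 was also listed but was not found in the values. None of the 9 was higher at an unadjusted p below 0.05 in limma, while 1 was lower. That gene was Nr3c1, the glucocorticoid receptor itself. It was 7.18, 7.60 and 7.09 FPKM in PND and 8.38, 9.78 and 15.8 FPKM in CON, a log2 ratio of -0.58 (SE 0.23, unadjusted p = 0.0397 and adjusted p = 1 in limma). Every PND sample lay below every CON sample, an order that 3.88% of all genes had. The size rested on CON replicate 3, and without it the log2 ratio was -0.31 with a p of 0.081. It was -0.76 (unadjusted p = 0.0106 in limma) without CON replicate 1 and -0.65 (unadjusted p = 0.0455 in limma) without CON replicate 2. The p was 0.092, 0.073 and 0.0945 without PND replicates 1, 2 and 3. Nr3c2, the mineralocorticoid receptor, was 3.65, 4.91 and 3.47 FPKM in PND and 2.44, 4.90 and 5.17 FPKM in CON, with a log2 ratio of 0.00 (SE 0.31). Hsd11b1, which regenerates active glucocorticoid in cells, was between 0.287 and 0.681 FPKM and had a log2 ratio of -0.21 (SE 0.37). The Hsp90 genes Hsp90aa1 and Hsp90ab1 had log2 ratios of -0.11 (SE 0.10) and -0.09 (SE 0.12).

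The relatives of the members, other genes of the same families, gave no call. Of 16 genes, 14 passed the filter on low values and 0 had an unadjusted p below 0.05 in limma. Fkbp4, the co-chaperone that favours receptor activity where Fkbp5 opposes it, was 14.5, 13.3 and 18.8 FPKM in PND and 6.78, 19.0 and 11.8 FPKM in CON. Plin2, the perilipin found in most cell types, was the 1 relative with every PND sample above CON, at 0.345, 0.314 and 0.407 FPKM against 0.204, 0.258 and 0.133 FPKM (log2 ratio 0.63, SE 0.35). Plin1 and Plin5 were below the filter, and Plin3 had a log2 ratio of 0.11 (SE 0.46). Sgk3 (0.07, SE 0.19), Cdkn1b (-0.07, SE 0.33), Ddit4l (-0.17, SE 0.17) and Sult4a1 (0.19, SE 0.20) had log2 ratios smaller than or similar to their errors. That a p missed the threshold does not show that these genes were alike in both groups.

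Cdkn1a and Ddit4 answer to more than glucocorticoids, so lists of p53 targets, hypoxia-induced genes and clock genes were set beside them. Of 10 p53 targets, 0 were higher and 1 was lower at an unadjusted p below 0.05 in limma. The lower one was Btg2, an antiproliferative gene, at 3.54, 2.12 and 1.86 FPKM in PND and 5.79, 4.12 and 4.92 FPKM in CON (log2 ratio -0.99, SE 0.27, unadjusted p = 0.00686 in limma). Mdm2, the p53 ubiquitin ligase, had a log2 ratio of 0.26 (SE 0.30), which was 0.61 without CON replicate 1 and 0.05 without CON replicate 2. Every PND sample lay above every CON sample for 1 of the 10, Eda2r (log2 ratio 0.55, SE 0.41), beside 3.78% of all genes. The reverse order held for 1, Btg2, beside 3.88%. Of the 10, 3 had a positive log2 ratio and 7 a negative one. Of 7 hypoxia-induced genes, 0 passed, while 4 had a positive log2 ratio and 3 a negative one. The highest was 0.88 (SE 0.74) for Slc2a1, with groups that overlapped. Of 13 clock genes, Ciart was higher, with a log2 ratio of 0.56 (SE 0.23, unadjusted p = 0.0455 in limma), and Dbp had one of 0.02 (SE 0.32). The unadjusted p of Ciart in limma was 0.162 without PND replicate 1, 0.0875 without PND replicate 2, 0.121 without CON replicate 1 and 0.0997 without CON replicate 3. The animals' hours of death were not given in the labels.

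In bulk tissue, fewer cells of a type and less RNA per cell cannot be told apart, so markers of the cells that may hold the members were read in the same samples. The summed level of 8 endothelial markers was 33.1 to 40.9 FPKM in PND and 29.3 to 32.5 FPKM in CON, and 1 of the 8, Ly6c1, was higher (log2 ratio 0.79, SE 0.21, unadjusted p = 0.00568 in limma). The other 7 were not called. Cldn5, Pecam1, Slco1a4 and Ly6a had log2 ratios of 0.31, 0.29, 0.33 and 0.51, Flt1 and Cdh5 of -0.05 and -0.02, and Tek of -0.38 with every PND sample below every CON sample. Of 6 astrocyte markers, Gfap was higher (0.66, SE 0.15, unadjusted p = 0.00294 in limma) and Aqp4 lower (-0.36, SE 0.13, unadjusted p = 0.0275 in limma), with sums of 288.8 to 399.1 FPKM in PND and 250.3 to 535.8 FPKM in CON. The width of these sums came largely from 1 gene, Slc1a2, at 113 to 219 FPKM in PND and 68.5 to 368 FPKM in CON. The unadjusted p of Aqp4 in limma was 0.0944 without PND replicate 2, 0.0766 without CON replicate 1 and 0.0741 without CON replicate 3.

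The 6 choroid plexus markers summed to 2.58 to 3.41 FPKM in PND and 1.48 to 2.81 FPKM in CON, and the defining marker Ttr was at 0.207 FPKM or less in every sample, with Folr1 listed at 0 in 5 samples. One choroid marker, Clic6, was higher (0.80, SE 0.30, unadjusted p = 0.0319 in limma). Its p was above 0.05 without PND replicate 1, PND replicate 3, CON replicate 1 or CON replicate 2, up to 0.106. Hemoglobin genes summed to at most 2.76 FPKM, in PND replicate 1, and to at most 0.0769 FPKM in CON. Of the 9 markers of mural cells and fibroblasts, 0 passed, with sums of 39.5 to 47.5 FPKM in PND and 35.8 to 49.8 FPKM in CON. The part of these cells in the levels of the members was not tested.

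The pattern of the members over the 6 mice was last compared with all other genes of at least 1 FPKM. Each member was standardised over the 6 samples and the 9 were averaged, which gave 0.41, 0.47 and 0.95 for PND replicates 1 to 3 and -0.97, -0.37 and -0.48 for CON replicates 1 to 3. The 5 genes whose log2 levels followed it most closely were Ezr (Pearson r = 0.993), Gm44168 (0.987), Srgap2 (0.979), Maco1 (0.976) and Agt (0.970). Ezr encodes ezrin, which links the membrane to actin, and was 22.4, 21.8 and 24.5 FPKM in PND and 16.5, 19.0 and 17.8 FPKM in CON. Agt encodes angiotensinogen, whose gene is itself known to respond to glucocorticoids, and was 1.73, 1.47 and 2.37 FPKM in PND and 0.564, 0.714 and 0.956 FPKM in CON. With 6 samples in 2 groups and shared libraries, 65 of 12378 genes had an r above 0.9, and the likeness is given as a description.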

How the data were processed

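mRNA was measured in prefrontal cortex of 3 PND and 3 CON mice, grouped by the treatment label. The authors removed ribosomal RNA, sequenced on an Illumina instrument, filtered reads with Seqtk, aligned them with HISAT2, counted fragments with StringTie, scaled by TMM and deposited FPKM per gene. The annotation, the use of strand and the versions of HISAT2 and StringTie are not given in the sources used here. Symbols were matched for 20866 of 21006 identifiers. Coordinates, GC content and exon overlaps came from GENCODE M21 (GRCm38), and promoter windows from RefSeq. FPKM were compared in limma 3.58.1 (R 4.3.3; lmFit, eBayes with trend) on log2(FPKM + 0.1), two-sided, over the 18185 genes averaging at least 0.1 FPKM, with Benjamini-Hochberg adjustment over all genes tested. Among these genes 2 had an adjusted p below 0.05 and 569 an unadjusted p below 0.05. The GC correction subtracted a loess trend on GC content (span 0.5) from each library. The fit was tested on data simulated without GC differences between libraries, where it recovered 188 of 200 genes changed 4-fold. It also called 198 unchanged genes past the cut-off among 18028 genes tested. Depth was estimated from steps of low FPKM, and 41.3% to 44.7% of such values lay within 0.05 of a whole fragment, too few to recover counts.

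Members and gene lists were chosen with earlier results of these data known. Named were the 9 members, their relatives where of use, genes of the other lists past the cut-off or at an unadjusted p below 0.05, up to 4 of highest level, the receptors, Hsd11b1, Per1 and Dbp, and the 5 genes most like the members. Klf9, Nfkbia, Dusp1, Klf15, Dio2, Mt1 and Mt2, Map3k6, Mdm2, Eda2r, Slc2a1, Hsp90 genes and marker genes that did not pass were named after their values were seen. Alternatives were other pseudocounts, filters, scalings, a GC correction, a replicate block and leaving out each animal. The result of 1 marker gene is not reported here.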

Additional observations from a re-analysis of the deposited data

How the results depend on the processing

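No gene called at an unadjusted p below 0.05 in the glucocorticoid, receptor, p53 and clock lists changed sign under the settings run. Some calls were lost, however. The unadjusted p of Nr3c1 in limma was 0.0577 after the GC correction, 0.0677 without the eBayes trend and 0.0507 with the replicate block. That of Gjb6 was 0.0679 and 0.0677 in the last 2 of these settings. That of Rhob was 0.0843 without the trend, and that of Ciart was 0.0946 with the block. With a pseudocount of 1 the log2 ratios of Plin4, Sult1a1 and Ctla2a were 1.40, 1.49 and 1.67, and the genes past the cut-off fell from 241 to 25 and the other glucocorticoid-induced genes past it (Lcn2 counted, here and in what follows) from 3 to 0, since a larger pseudocount shrinks low values. With a mean of at least 1 FPKM these were 59 and 1, as fewer genes were tested. Leaving out each animal gave 240 to 402 genes and 2 to 5 other glucocorticoid-induced genes, the highest of both without CON replicate 2. The other glucocorticoid-induced genes higher at an unadjusted p below 0.05, 9 as reported, were 7 to 11 under the other settings and 6 to 10 when each animal was left out. After quantile normalization 124 genes were past the cut-off as higher and 116 as lower, against 153 and 88. Deviations of same-numbered samples correlated at -0.0487, -0.451 and 0.0274. These values include the GC differences between libraries, so they cannot decide whether the replicate numbers pair the animals. With the replicate block 226 genes were past the cut-off and 8 other glucocorticoid-induced genes were higher at an unadjusted p below 0.05. In that fit 0 genes had an adjusted p below 0.05 and 361 an unadjusted one. The 3 samples in each group and the low fragment numbers of genes such as Rasd1 and Lcn2 limit all values.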

Other observations

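Markers of other cortical cells were read in the same fit. Among 5 microglia markers, P2ry12, a purine receptor of resting microglia, was lower at 4.61, 7.06 and 4.79 FPKM in PND against 10.7, 9.47 and 7.68 FPKM in CON (log2 ratio -0.76, SE 0.21, unadjusted p = 0.00767 in limma), and the other 4 did not pass. Among 9 oligodendrocyte markers, Opalin, a myelin membrane protein, was lower (-0.78, SE 0.29, unadjusted p = 0.0291 in limma), and its p rose to 0.0698, 0.1, 0.0911 and 0.0929 without PND replicate 2, PND replicate 3, CON replicate 2 and CON replicate 3. The adjusted p of both genes in limma was 1.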
